A study of Homo sapiens with 6 samples.

Results

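Of the 60675 genes counted in this series, 9 are described here: 6 receptors or surface proteins of monocytes (PTAFR, CLEC5A, TREM1, CSF1R, CD14 and MS4A6A), the adaptor TYROBP, and the Src-family kinases FGR and LYN. They were picked by gene name for their role in monocytes and were selected on levels already known in both knockdown groups, so their differences between the groups are given as a description, with no test. The SUPV3L1 knockdown group and the PNPT1 knockdown group each hold 3 libraries, which the design text calls biological replicates. All 6 libraries come from OCI-AML2, an established human acute myeloid leukaemia line, grown in the same medium and transduced with a short hairpin RNA against SUPV3L1 (also called SUV3, the mitochondrial RNA helicase) or against PNPT1 (the mitochondrial RNA-degrading enzyme PNPase). In every library the RNA was precipitated from cell lysate with J2, an antibody that binds double-stranded RNA, before a directional library was made. Cells without a knockdown and RNA from before the precipitation were not analysed here, so each value compares one knockdown with the other, and a change in expression and a change in precipitation cannot be told apart. The numbers in the sample titles are not explained by the labels, so it is unknown whether a group holds 1 hairpin or several, and replicate numbers below follow accession order and pair nothing.

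Monocytes sense microbes, lipid mediators and growth factors through surface receptors, and many of these have no signalling domain of their own. CLEC5A and TREM1 pair with DAP12, the product of TYROBP, whose cytoplasmic motif (an ITAM) is phosphorylated by Src-family kinases such as LYN and FGR and then recruits the kinase SYK. CSF1R is itself a tyrosine kinase, PTAFR is coupled to G proteins, and CD14 hands lipopolysaccharide to the TLR4 complex. Several of these genes are textbook targets of the myeloid transcription factor PU.1, and their surface proteins are used to mark monocytic differentiation in leukaemia.

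Because several of these genes are known PU.1 targets, the 300-base windows around their transcript starts in RefSeq (GRCh38.p14) were read for the letters GAGGAA, a core of the PU.1 recognition sequence, on both strands. Windows were found for 8 of the 9 genes, 14 in all, since PTAFR, CSF1R, MS4A6A and FGR have more than 1 start. The motif was present in 9 of the 14 windows (64.3%) and in at least 1 window of each of the 8 genes, and 27.8% of 35116 human promoter windows of the same length held it. TTGCNNAA, a C/EBP motif, was in 4 of the 14 windows (28.6%, against 10.5% of all windows) and in 3 of the 8 genes, since 2 of these windows, both of MS4A6A, overlap and share 1 match. TGTGGT, a RUNX motif, was in 5 windows (35.7%, against 13.1%) and 5 genes. No match of one motif overlapped a match of another in these 14 windows. The share of all human genes with a match in any of their windows was not counted, and a gene with several windows has more room for one. GAGGAA was chosen because several of these genes are known PU.1 targets, so no enrichment is read from these numbers. A match describes letters, not a bound site. The windows of 4 genes whose data differ most in kind are printed 5′ to 3′ on the minus strand, with GAGGAA or its reverse complement in capitals: CSF1R at its downstream start, known as the macrophage promoter (chr5:150086505-150086804), CD14 (chr5:140633126-140633425), CLEC5A (chr7:141946925-141947224) and TYROBP (chr19:35908246-35908545).
CSF1R: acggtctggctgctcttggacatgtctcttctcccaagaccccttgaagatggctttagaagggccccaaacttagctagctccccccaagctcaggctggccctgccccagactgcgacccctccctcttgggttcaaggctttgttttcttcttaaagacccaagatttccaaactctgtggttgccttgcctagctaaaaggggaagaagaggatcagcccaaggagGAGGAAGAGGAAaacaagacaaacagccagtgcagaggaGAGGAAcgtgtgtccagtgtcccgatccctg
CD14: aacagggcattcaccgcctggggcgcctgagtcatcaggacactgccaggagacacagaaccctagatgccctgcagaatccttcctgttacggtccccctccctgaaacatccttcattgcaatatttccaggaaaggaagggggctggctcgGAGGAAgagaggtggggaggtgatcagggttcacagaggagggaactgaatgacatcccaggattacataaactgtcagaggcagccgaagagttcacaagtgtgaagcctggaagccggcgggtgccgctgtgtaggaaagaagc
CLEC5A: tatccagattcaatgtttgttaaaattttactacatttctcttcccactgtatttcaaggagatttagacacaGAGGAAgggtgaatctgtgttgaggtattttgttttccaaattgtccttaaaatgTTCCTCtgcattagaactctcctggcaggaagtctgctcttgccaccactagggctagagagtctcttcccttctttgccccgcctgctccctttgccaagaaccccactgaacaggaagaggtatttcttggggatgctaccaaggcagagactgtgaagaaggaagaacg
TYROBP: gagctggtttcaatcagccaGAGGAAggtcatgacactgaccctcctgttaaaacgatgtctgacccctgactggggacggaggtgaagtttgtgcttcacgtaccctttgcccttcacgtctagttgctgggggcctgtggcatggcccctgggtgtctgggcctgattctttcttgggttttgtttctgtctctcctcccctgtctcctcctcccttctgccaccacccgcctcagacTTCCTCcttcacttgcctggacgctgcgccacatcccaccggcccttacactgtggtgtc
The CSF1R window held 3 matches, 2 of them side by side, CLEC5A and TYROBP held 2 each and CD14 held 1. The other CSF1R window, at the upstream start known from placental trophoblasts, held none. Any relation between the number of matches and the levels of these genes was not tested.

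Assigned counts per library were 9378264 to 11361371 in the SUPV3L1 knockdown libraries and 5852090 to 10464630 in the PNPT1 knockdown libraries. PNPT1 knockdown replicate 3 was the shallowest, with 16620 genes detected against 20765 to 22393 in the other libraries, and it had the highest share of alignments that were not unique (80.1%). SUPV3L1, the targeted gene, was at 12.2, 12.3 and 9.42 CPM (counts scaled to library size by TMM) in the SUPV3L1 knockdown libraries, against 11.6, 18.2 and 25.8 CPM in PNPT1 knockdown, and these groups overlapped. PNPT1 was at 36.3, 27.6 and 21.4 CPM in SUPV3L1 knockdown, against 7.66, 18.9 and 17.1 CPM in PNPT1 knockdown, with no overlap. Of the 9 markers listed for the line, PTPRC, CD33, SPI1, CEBPA and LYZ were present. MPO was low, with 10, 75 and 10 counts in SUPV3L1 knockdown and 14, 13 and 13 counts in PNPT1 knockdown. ANPEP had at most 8 counts in any library, KIT had at most 5, and CD34 had 0 counts in all 6 libraries. Of the marker lists of other cells, 5 of 6 erythroid genes were at 0 in every library, and the summed level of T and NK cell markers was 2.17 to 9.70 CPM in SUPV3L1 knockdown, against 3.09 to 6.40 CPM in PNPT1 knockdown. B cell markers summed to 2.14 to 5.31 CPM in SUPV3L1 knockdown, against 1.02 to 3.93 CPM in PNPT1 knockdown (MS4A1 at 0 counts). Megakaryocyte and platelet markers summed to 2.08 to 3.25 CPM in SUPV3L1 knockdown, against 0.512 to 3.49 CPM in PNPT1 knockdown (PF4 at 0). Fibroblast and epithelial markers summed to 0 to 0.433 CPM in SUPV3L1 knockdown, against 0 to 1.10 CPM in PNPT1 knockdown (4 of 6 at 0). Within the leukaemia line's own list LYZ, the lysozyme of monocytes and granulocytes, was in the same order as the receptors, at 344 to 1493 CPM in SUPV3L1 knockdown, against 36.6 to 180 CPM in PNPT1 knockdown. SPI1, which encodes PU.1, was at 75.5, 82.4 and 77.3 CPM in SUPV3L1 knockdown, against 58.0, 66.9 and 52.0 CPM in PNPT1 knockdown, and CD33 was at 47.0, 41.4 and 59.2 CPM in SUPV3L1 knockdown, against 37.8, 28.2 and 31.7 CPM in PNPT1 knockdown. LYZ, SPI1 and CD33 were the 3 genes whose groups did not overlap, out of 6 of that list that passed the filter on low counts. Over all genes tested 4.62% did not overlap with SUPV3L1 knockdown higher, and the list was chosen with earlier results known. The part of these differences in markers and depth in the values below was not tested.

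The 9 genes fell into 3 patterns. PTAFR, CLEC5A, TREM1, CSF1R, MS4A6A and FGR lay above every PNPT1 knockdown library in all 3 SUPV3L1 knockdown libraries, with log2 fold changes of 2.00 to 3.51. CD14 was high in a single SUPV3L1 knockdown library, and TYROBP and LYN were level between the groups. The filter on low counts left 8 of the 9 genes (CD14 did not pass) and 13275 genes in all. The median log2 fold change of the 8 was 2.48, against 0.0094 over all genes tested, and 6 of the 8 had groups that did not overlap with SUPV3L1 knockdown higher (4.62% of all genes tested) and a log2 fold change above 1 (4.72% of all genes tested). Because the genes were chosen on this contrast and a gene high in 1 group passes the filter through that group, nothing is read from these shares. The edgeR quasi-likelihood test called no gene of the 13275 at a Benjamini-Hochberg adjusted p of 0.05 (0.0% called, the smallest adjusted p being 0.898). In the same test, 543 of the 13275 genes had an unadjusted p under 0.05. That share is itself smaller than 0.05, so nothing is read from it. DESeq2 called 19 of 17785 genes (0.107%), PTAFR, CLEC5A, TREM1 and FGR among them, and since these genes were selected on this contrast their calls are no test of it.

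**Figure D1:**
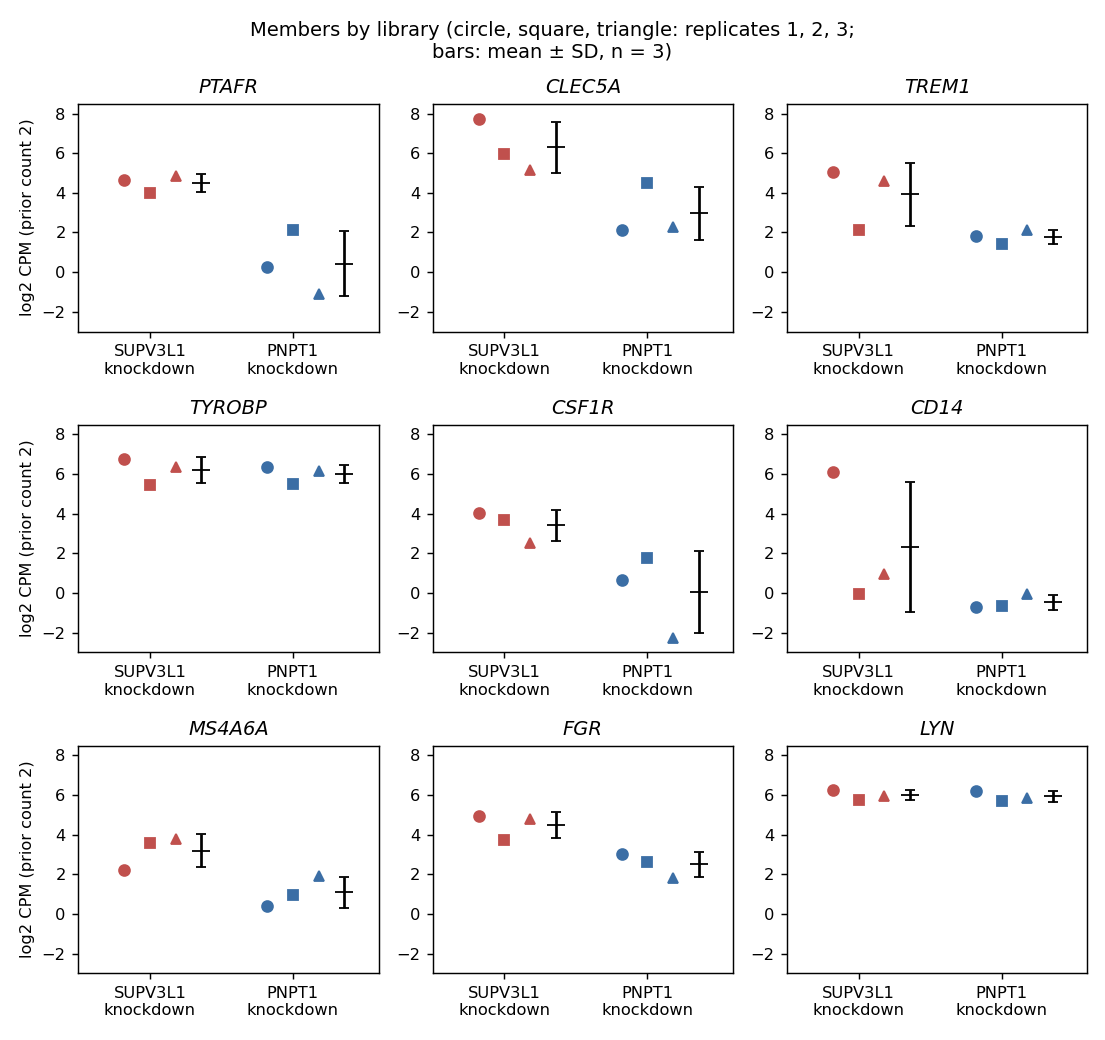
Log2 CPM (prior count 2) of the 9 genes in each library, SUPV3L1 knockdown in red and PNPT1 knockdown in blue, with the mean ± SD of 3 libraries as black bars. PTAFR, CLEC5A, CSF1R, MS4A6A and FGR show a gap between the groups, TREM1 a gap of almost nothing, CD14 a single high library, and TYROBP and LYN no gap.

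PTAFR, the receptor for platelet-activating factor, had the largest log2 fold change of the 8 genes that passed the filter. It lies on chromosome 1 (28147166 to 28193936, minus strand; GENCODE 29, GRCh38). Its counts were 302, 165 and 260 in the SUPV3L1 knockdown libraries and 10, 48 and 1 in the PNPT1 knockdown libraries. After scaling, PTAFR was at 24.8, 15.6 and 28.1 CPM in SUPV3L1 knockdown, against 0.995, 4.19 and 0.256 CPM in PNPT1 knockdown. The lowest SUPV3L1 knockdown library was 3.71 times the highest PNPT1 knockdown library, the widest gap among the 9 genes, and the log2 fold change was 3.51 ± 0.70 (SE). The PNPT1 knockdown libraries themselves spread 16.4-fold, against 1.81-fold in SUPV3L1 knockdown, and leaving out PNPT1 knockdown replicate 2 gave a log2 fold change of 4.93. Both values lean on PNPT1 knockdown replicate 3, where PTAFR had 1 count (95% Poisson interval 0.006 to 1.43 CPM), so neither is measured closely. The neighbour DNAJC8, 5.52 kb away on the same strand, was at 58.13, 48.85 and 43.64 CPM in SUPV3L1 knockdown, against 31.75, 38.51 and 39.15 CPM in PNPT1 knockdown. Its groups did not overlap either, with a log2 fold change of 0.46 ± 0.29 (SE). Fewer cells carrying a transcript and less of it per cell cannot be told apart in these bulk libraries, here and for every gene below.

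CLEC5A, a C-type lectin of myeloid cells that signals through DAP12, had the highest CPM of any of the 9 genes in a single library. It was at 211, 62.3 and 35.9 CPM in SUPV3L1 knockdown, against 4.18, 22.5 and 4.61 CPM in PNPT1 knockdown. The groups did not overlap, although both were wide, with the highest library at 5.87 times the lowest in SUPV3L1 knockdown and 5.39 times in PNPT1 knockdown. The log2 fold change was 3.27 ± 0.80 (SE), 2.2 without SUPV3L1 knockdown replicate 1 and 4.55 without PNPT1 knockdown replicate 2. CLEC5A (chromosome 7, 141927357 to 141947007, minus strand) overlaps MGAM, a maltase-glucoamylase gene on the opposite strand, over 496 exonic bases. MGAM was at 43.2, 7.26 and 10.4 CPM in SUPV3L1 knockdown, against 4.18, 4.45 and 1.02 CPM in PNPT1 knockdown, and its log2 fold change was 2.59 ± 0.73 (SE). No source used here gives the strand setting of the counting, so reads of the shared bases cannot be assigned with certainty to either gene.

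TREM1, an immunoglobulin-like receptor that amplifies inflammatory responses of monocytes and neutrophils, separated the groups by a hair. It was at 33.5, 4.15 and 24.0 CPM in SUPV3L1 knockdown, against 3.28, 2.45 and 4.09 CPM in PNPT1 knockdown, a log2 fold change of 2.67 ± 0.67 (SE). SUPV3L1 knockdown replicate 2, with 44 counts (95% Poisson interval 3.02 to 5.57 CPM), could not be told from PNPT1 knockdown replicate 3, with 16 counts (2.34 to 6.65 CPM). With DESeq2's size factors these libraries were at 4.13 and 4.26 CPM, and the groups overlapped. TREM1 lies on chromosome 6 (41267926 to 41286719, minus strand).

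CSF1R, the receptor for the macrophage growth factor CSF1 and for IL34, was among the least abundant of the 9 genes. It lies on chromosome 5 (150053291 to 150113372, minus strand). It was at 16.3, 12.4 and 5.63 CPM in SUPV3L1 knockdown, against 1.39 and 3.14 CPM in the first 2 PNPT1 knockdown libraries and 0 counts in PNPT1 knockdown replicate 3, where 3 counts would have been 0.768 CPM. The groups did not overlap, and the log2 fold change was 2.78 ± 0.81 (SE) and 3.72 without PNPT1 knockdown replicate 2. PDGFRB, the platelet-derived growth factor receptor gene 0.465 kb upstream on the same strand, was at 2.38, 1.89 and 3.25 CPM in SUPV3L1 knockdown, against 3.48, 2.62 and 5.12 CPM in PNPT1 knockdown, the opposite order on average, with overlap. HMGXB3, 0.149 kb away on the other side, also overlapped between the groups, with a log2 fold change of -0.27 ± 0.35 (SE).

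MS4A6A, a membrane-spanning protein of monocytes and macrophages, showed another order of libraries. It was at 4.52, 11.7 and 13.5 CPM in SUPV3L1 knockdown, against 1.09, 1.75 and 3.58 CPM in PNPT1 knockdown, a log2 fold change of 2.28 ± 0.62 (SE). The groups did not overlap, with the lowest SUPV3L1 knockdown library at 1.26 times the highest PNPT1 knockdown library. SUPV3L1 knockdown replicate 1, the highest library for 7 of the 9 genes, was the lowest of its group here. MS4A6A lies on chromosome 11 (60172014 to 60184666, minus strand) in a cluster of related genes, and its nearest neighbour MS4A4A, 1.04 kb away, had at most 3 counts in any library.

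CD14, the co-receptor for lipopolysaccharide and the standard surface marker of monocytes, was a matter of 1 library. Its counts were 822, 8 and 16 in the SUPV3L1 knockdown libraries, against 4, 5 and 3 in the PNPT1 knockdown libraries. Scaled, these were 67.6, 0.754 and 1.73 CPM in SUPV3L1 knockdown, against 0.398, 0.437 and 0.768 CPM in PNPT1 knockdown, so SUPV3L1 knockdown replicate 2 lay within the range of the PNPT1 knockdown libraries, by a margin smaller than 1 count. In the deposited FPKM it was at 0.338, against 0.160 to 0.200 in PNPT1 knockdown, and the groups did not overlap. A fit without the filter gave a log2 fold change of 5.56 ± 0.61 (SE), and DESeq2 gave CD14 no adjusted p. That SE came from the F statistic of the fit and is not the spread of the libraries. Their pooled SD within groups was 2.34 on the log2 CPM scale, so the change is far less certain than the SE reads. Without SUPV3L1 knockdown replicate 1, the mean was 1.24 CPM in SUPV3L1 knockdown (24 counts) and 0.534 CPM in PNPT1 knockdown (12 counts), a ratio of 2.33. CD14 lies on chromosome 5 (140631728 to 140633701, minus strand), and its neighbour NDUFA2, a subunit of respiratory complex I, was at 14.1, 8.39 and 12.3 CPM in SUPV3L1 knockdown, against 11.6, 6.99 and 39.9 CPM in PNPT1 knockdown.

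The same library was high for some other receptors of mature monocytes, of which 4 are named here after their values were seen. In the list of 36 other monocyte surface receptors, SUPV3L1 knockdown replicate 1 was the highest of the 6 libraries for 24, another SUPV3L1 knockdown library for 7 and a PNPT1 knockdown library for 5. Among the 21 that passed the filter on low counts, these numbers were 12, 5 and 4. How often this library, the one with the most assigned counts, was highest over all genes was not counted, so nothing is read from these numbers. FPR1, a receptor for bacterial formyl peptides, had 331, 1 and 42 counts in SUPV3L1 knockdown and 2, 5 and 3 counts in PNPT1 knockdown. FPR2, its relative, had 413, 8 and 36 counts in SUPV3L1 knockdown and 4, 12 and 0 in PNPT1 knockdown. C5AR1, the receptor for complement C5a, had 200, 0 and 31 counts in SUPV3L1 knockdown and 1, 2 and 0 in PNPT1 knockdown. CLEC7A, the beta-glucan receptor Dectin-1, had 123, 0 and 12 counts in SUPV3L1 knockdown and 2, 3 and 0 in PNPT1 knockdown. For all 4, replicate 1 was the highest SUPV3L1 knockdown library and replicate 2 the lowest, and that lowest value lay within or below the range of PNPT1 knockdown.

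TYROBP, the gene of the adaptor DAP12 on which CLEC5A and TREM1 depend, was the most abundant of the 9 per length and was level between the groups. It was at 108, 43.8 and 81.6 CPM in SUPV3L1 knockdown, against 81.7, 44.5 and 70.9 CPM in PNPT1 knockdown. The groups overlapped, the lowest library of all being SUPV3L1 knockdown replicate 2, and the log2 fold change was 0.25 ± 0.39 (SE), or -0.08 without SUPV3L1 knockdown replicate 1. TYROBP lies on chromosome 19 (35904401 to 35908295, minus strand), 0.024 kb from HCST on the opposite strand, the gene of the related adaptor DAP10. HCST was at 27.0, 6.22 and 31.0 CPM in SUPV3L1 knockdown, against 13.7, 6.64 and 19.5 CPM in PNPT1 knockdown, again with overlap.

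FGR, a Src-family kinase largely restricted to myeloid cells, lay with the receptors. It was at 30.3, 13.3 and 27.3 CPM in SUPV3L1 knockdown, against 7.96, 6.03 and 3.33 CPM in PNPT1 knockdown, a log2 fold change of 2.00 ± 0.46 (SE). The groups did not overlap, the lowest SUPV3L1 knockdown library being 1.67 times the highest PNPT1 knockdown library. Over the leave-one-out fits it ranged from 1.75 to 2.29, the narrowest range of the 6 genes whose groups did not overlap. FGR lies on chromosome 1 (27612064 to 27635277, minus strand), and its neighbour AHDC1 was at 5.26, 8.96 and 5.31 CPM in SUPV3L1 knockdown, against 8.36, 9.17 and 14.8 CPM in PNPT1 knockdown, which overlapped.

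LYN, the Src-family kinase that phosphorylates both activating and inhibitory receptors in myeloid cells, varied least. It was at 75.9, 54.0 and 61.5 CPM in SUPV3L1 knockdown, against 74.7, 52.4 and 58.1 CPM in PNPT1 knockdown, a log2 fold change of 0.05 ± 0.30 (SE). The group means were 63.8 ± 11.1 CPM in SUPV3L1 knockdown, against 61.7 ± 11.6 CPM in PNPT1 knockdown (SD, n = 3 each), and the groups overlapped. LYN lies on chromosome 8 (55879813 to 56014168, plus strand).

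**Figure D2:**
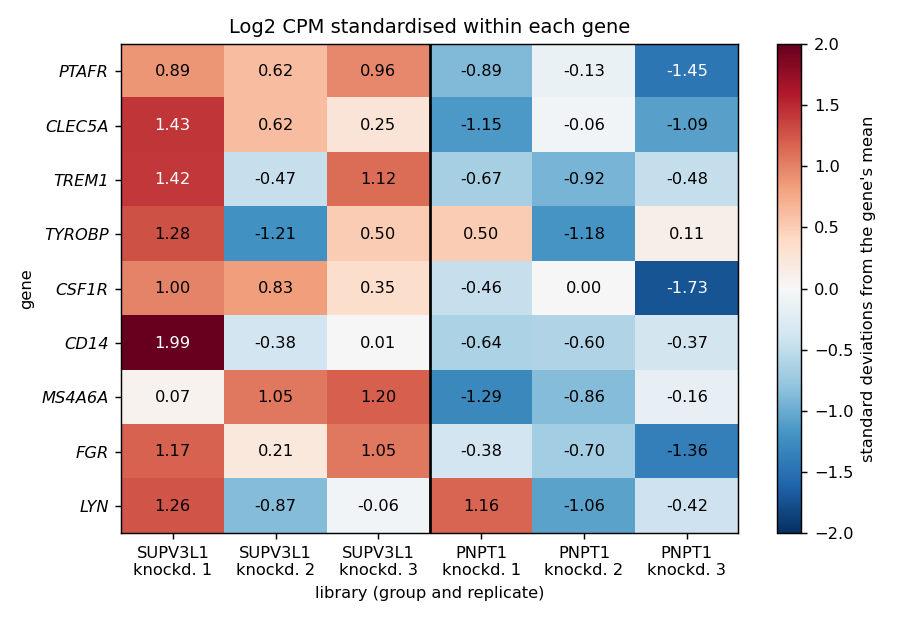
Log2 CPM of each gene in each library, given as standard deviations from that gene's mean over the 6 libraries, with SUPV3L1 knockdown left of the line and PNPT1 knockdown right of it. Averaged over the 9 genes, SUPV3L1 knockdown replicates 1, 2 and 3 were at 1.17, 0.04 and 0.60 and PNPT1 knockdown replicates 1, 2 and 3 at -0.42, -0.61 and -0.77.

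Levels of different genes were compared per length, as FPKM (fragments scaled to gene length and library depth) from the deposited table. In SUPV3L1 knockdown the order of mean levels was TYROBP (62.8 ± 26.9 FPKM), CLEC5A (17.3 ± 15.5 FPKM), CD14 (10.3 ± 16.9 FPKM), LYN (7.63 ± 1.30 FPKM), FGR (5.01 ± 2.13 FPKM), PTAFR (3.79 ± 1.02 FPKM), TREM1 (3.37 ± 2.52 FPKM), CSF1R (1.67 ± 0.82 FPKM) and MS4A6A (1.23 ± 0.51 FPKM; SD, n = 3 for each). Of the neighbours in that order, TYROBP and CLEC5A alone were further apart than their SDs reach. In PNPT1 knockdown TYROBP was again first (51.2 ± 23.2 FPKM) and LYN was second (7.12 ± 3.07 FPKM), before CLEC5A (1.91 ± 2.11 FPKM) and FGR (1.24 ± 0.80 FPKM). TREM1 (0.508 ± 0.140 FPKM), PTAFR (0.342 ± 0.442 FPKM), CSF1R (0.248 ± 0.244 FPKM), MS4A6A (0.224 ± 0.080 FPKM) and CD14 (0.185 ± 0.021 FPKM) followed, with no gap beyond the SDs from CLEC5A downward. The adaptor and LYN were thus at like levels in both groups, and the receptors were low next to them in PNPT1 knockdown.

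The genes did not all follow one another within a group. After each group's mean was taken from the log2 CPM, the 36 pairs of genes had a median Pearson correlation of 0.11 (-0.73 to 0.89) over the 6 libraries, and 22 pairs were above 0 (61.1%). Over the pairs of all genes tested the median was 0.0065, with 50.3% above 0. TREM1 and TYROBP (0.89), TYROBP and LYN (0.88) and PTAFR and CSF1R (0.80) were the closest pairs. MS4A6A was negatively correlated with all 8 of the other genes (-0.73 to -0.29), and among the 28 pairs without it the median was 0.54. These coefficients are descriptions, since the points share libraries, depth and scaling.

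The genes whose log2 CPM over the 6 libraries was most like the mean standardised profile of the 9 were sought among 9734 genes with a mean count of 50 or more. The closest was HPSE, the gene of heparanase, which cleaves heparan sulphate (Pearson r = 0.99), at 11.8 ± 11.5 CPM in SUPV3L1 knockdown, against 1.28 ± 0.29 CPM in PNPT1 knockdown (SD, n = 3). FGL2, a fibrinogen-like protein of macrophages, followed (r = 0.98), at 10.2 ± 9.57 CPM in SUPV3L1 knockdown, against 1.13 ± 0.54 CPM in PNPT1 knockdown. The other 8 of the closest 10 were ENC1, MSRB1, SPTY2D1, MTF1, MGAM2, TGM3, TYMP and ASAP1, with r from 0.96 to 0.97. Among the 9734, 52 genes had r above 0.9, over 6 libraries that fall into 2 groups.

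The other genes of each pathway were taken from lists, without the 9 genes, and edgeR called none of their members in either direction. A fit without the filter on low counts gave 9 calls in the lists and called 187 genes in all. The 9 calls may include genes described here. That fit took every gene with any count, and the share it called was not computed, so nothing is read from the 9 calls. Among the other Src-family kinases, FYN and SRC passed the filter, and their groups overlapped. FYN was at 39.3 ± 1.62 CPM in SUPV3L1 knockdown, against 43.2 ± 8.94 CPM in PNPT1 knockdown (SD, n = 3). SRC was at 6.55 ± 4.64 CPM in SUPV3L1 knockdown, against 6.59 ± 6.22 CPM in PNPT1 knockdown. YES1 and BLK were listed at 0 counts in all 6 libraries, and LCK and FRK had at most 1. Next to FGR, at a log2 fold change of 2.00, LYN, SRC and FYN were at 0.05, -0.04 and -0.14.

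The ITAM adaptors and DAP12-coupled receptors had 6 other genes that passed the filter, all of them higher in SUPV3L1 knockdown on average, with a median log2 fold change of 0.71. This list too was chosen with earlier results known, so nothing is read from that median. The most abundant per length were the adaptors HCST, described above, and FCER1G, the common gamma chain of Fc receptors, at 15.8 ± 11.0 CPM in SUPV3L1 knockdown, against 13.8 ± 2.82 CPM in PNPT1 knockdown (SD, n = 3). SIRPB1, a DAP12-coupled receptor named after its values were seen, was at 48.8, 58.0 and 64.8 CPM in SUPV3L1 knockdown, against 23.3, 30.3 and 18.4 CPM in PNPT1 knockdown. Its groups did not overlap, and its libraries were tighter than those of CLEC5A or TREM1, with a log2 fold change of 1.24 ± 0.32 (SE). Below these receptors, the kinases, adaptors and enzymes went both ways, with 11 of 16 above 0, a median of 0.08 on the log2 scale and a range from -0.44 (BTK) to 0.65 (SYK). BCL10, a signalling adaptor named after its values were seen, was at 16.7, 15.7 and 13.5 CPM in SUPV3L1 knockdown, against 11.2, 12.1 and 7.17 CPM in PNPT1 knockdown. It was the 1 gene of the 16 whose groups did not overlap. Over all genes tested 4.62% did not overlap with SUPV3L1 knockdown higher, so nothing about the list is read from this gene. SYK, which binds the phosphorylated ITAM, was at 125 ± 40.9 CPM in SUPV3L1 knockdown, against 79.4 ± 47.2 CPM in PNPT1 knockdown, the adaptor LAT2 at 219 ± 13.8 CPM in SUPV3L1 knockdown, against 214 ± 79.0 CPM in PNPT1 knockdown. GRB2, the adaptor that links receptors to RAS, was at 154 ± 26.7 CPM in SUPV3L1 knockdown, against 125 ± 13.5 CPM in PNPT1 knockdown. The regulators of Src-family kinases had 7 of 13 genes above 0 and a median of 0.02. Their most abundant genes were PTPRC (CD45, the phosphatase that activates these kinases; log2 fold change -0.22), PTPN6 (the phosphatase SHP-1; -0.46), CBL (a ubiquitin ligase; 0.04) and PTPN11 (the phosphatase SHP-2; -0.0045).

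In the CSF1 receptor axis, neither ligand was seen beyond 1 count in a library (CSF1 and IL34). CSF2RB, the common beta chain of the GM-CSF receptor, was at 28.0, 27.2 and 37.2 CPM in SUPV3L1 knockdown, against 17.5, 22.5 and 4.09 CPM in PNPT1 knockdown, with no overlap and a log2 fold change of 1.04 ± 0.51 (SE). It was the 1 gene without overlap among the 4 other genes of this axis that passed the filter (4.62% of all genes tested with SUPV3L1 knockdown higher). CSF2RA, CSF3R and FLT3, receptors of GM-CSF, G-CSF and FLT3 ligand, had log2 fold changes of 0.05, 0.20 and -0.03, and KIT had at most 5 counts. The genes that make or break down platelet-activating factor did not follow PTAFR, with 3 of 7 above 0 and a median of -0.14. LPCAT2, an enzyme of its synthesis in inflammatory cells, was at 68.4 ± 9.32 CPM in SUPV3L1 knockdown, against 75.5 ± 11.4 CPM in PNPT1 knockdown (SD, n = 3). PLA2G4A, the phospholipase that releases its precursor, had the lowest log2 fold change of the axis (-0.86 ± 0.45, SE), with groups that overlapped, and PLA2G7, the plasma enzyme that inactivates it, was at 0 counts. The log2 fold changes of LPCAT1, PAFAH2, PAFAH1B1, PAFAH1B2 and PAFAH1B3 were 0.32, 0.92, -0.25, -0.23 and 0.08.

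In the CD14 and Toll-like receptor axis 12 genes passed the filter, of which 10 lay above 0 and 5 above 1 (4.72% of all genes tested). Their median was 0.83 on the log2 scale. The list was chosen with earlier results known, and a gene high in 1 group passes the filter through that group, so nothing is read from these numbers. Of the Toll-like receptors listed, TLR1, TLR4, TLR6 and TLR8 were highest in SUPV3L1 knockdown replicate 1, as CD14 was, and TLR2 in replicate 3. Its most abundant genes per length were IRAK3, an inhibitor of Toll-like receptor signalling, at 165 ± 8.37 CPM in SUPV3L1 knockdown, against 125 ± 56.6 CPM in PNPT1 knockdown, and TLR2, the receptor for bacterial lipoproteins, at 63.1 ± 12.7 CPM in SUPV3L1 knockdown, against 39.6 ± 16.5 CPM in PNPT1 knockdown (SD, n = 3). IRAK1, a kinase of the pathway, was at 36.5 ± 13.4 CPM in SUPV3L1 knockdown, against 32.8 ± 12.5 CPM in PNPT1 knockdown. TLR4, to which CD14 passes its ligand, was taken up here for that role and was at 33.2, 8.02 and 15.2 CPM in SUPV3L1 knockdown, against 3.88, 9.52 and 1.28 CPM in PNPT1 knockdown, which overlapped, and LY96, the MD-2 subunit of the same complex, had at most 4 counts. MYD88, the adaptor shared by most of these receptors and named after its values were seen, was at 25.0, 23.3 and 17.1 CPM in SUPV3L1 knockdown, against 10.7, 9.96 and 7.42 CPM in PNPT1 knockdown, with no overlap and a log2 fold change of 1.21 ± 0.35 (SE). It was 1 of 2 genes of the 12 without overlap (4.62% of all genes tested with SUPV3L1 knockdown higher). The other, TLR8, barely separated, at 15.05, 1.13 and 2.60 CPM in SUPV3L1 knockdown, against 0.697, 1.05 and 0.256 CPM in PNPT1 knockdown. In the MS4A family, MS4A3, a gene of granulocyte and monocyte precursors, was the most abundant and lay the other way from MS4A6A, at 104 ± 46.7 CPM in SUPV3L1 knockdown, against 129 ± 46.1 CPM in PNPT1 knockdown, with overlap. MS4A7 and MS4A14 had log2 fold changes of 0.45 and 0.35, and 6 of the 12 family genes were at 0 counts in every library.

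Among 36 other monocyte surface receptors, 21 passed the filter, of which 17 lay above 0, 9 above 1 and 5 did not overlap with SUPV3L1 knockdown higher, with a median log2 fold change of 0.63. Over all genes tested, 4.72% lay above 1 and 4.62% did not overlap with SUPV3L1 knockdown higher. The receptors were listed with earlier results known, and a gene high in 1 group passes the filter through that group, so nothing is read from these shares. CD93, a lectin-like receptor of myeloid and endothelial cells, was at 190, 93.3 and 83.7 CPM in SUPV3L1 knockdown, against 14.8, 55.4 and 17.9 CPM in PNPT1 knockdown, a log2 fold change of 2.05 ± 0.54 (SE). CCR2, the chemokine receptor that brings monocytes out of the marrow and named after its values were seen, was at 33.7, 27.4 and 11.1 CPM in SUPV3L1 knockdown, against 3.28, 10.2 and 0.768 CPM in PNPT1 knockdown. Neither gene overlapped between the groups. The groups overlapped for FCGR1A, the high-affinity IgG receptor CD64, at 35.4 ± 6.74 CPM in SUPV3L1 knockdown, against 40.5 ± 6.45 CPM in PNPT1 knockdown (SD, n = 3), and for CLEC12A, an inhibitory lectin of leukaemic cells, at 58.7 ± 15.5 CPM in SUPV3L1 knockdown, against 51.8 ± 28.4 CPM in PNPT1 knockdown. CD68, a lysosomal protein of macrophages, had at most 3 counts in any library but 34.7 ± 20.2 FPKM in SUPV3L1 knockdown and 14.1 ± 5.55 FPKM in PNPT1 knockdown in the deposited table, so the count and FPKM tables differ for it.

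**Figure D3:**
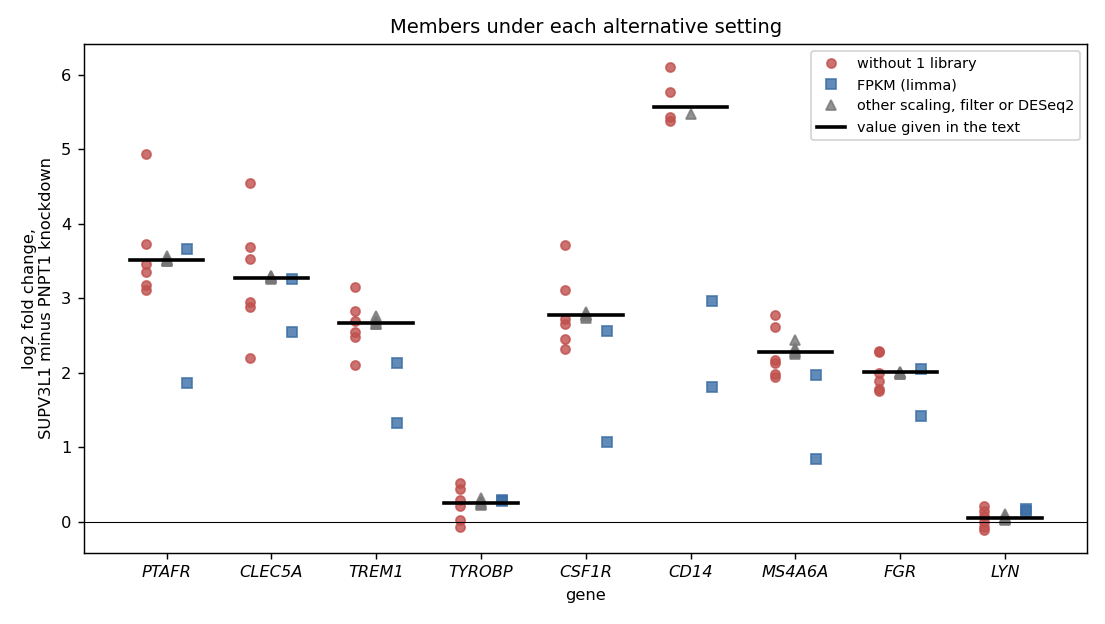
Log2 fold change (SUPV3L1 knockdown minus PNPT1 knockdown) of each of the 9 genes, with the value given in the text as a black bar, fits without 1 library as red circles, fits on FPKM as blue squares and other scalings, filters or DESeq2 as grey triangles. The bars of PTAFR, CLEC5A, TREM1, CSF1R, MS4A6A and FGR lie at 2.00 or above, and those of TYROBP and LYN near 0.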

How the data were processed

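RNA precipitated with J2 from OCI-AML2 cells was sequenced in 3 SUPV3L1 knockdown and 3 PNPT1 knockdown libraries. The deposited count tables give whole reads per Ensembl gene, and the authors' deposited table gives FPKM for the same genes. The submitters' processing notes name GRCh38 and list HTSeq, StringTie 2.1.4, SAMtools 1.14 and HISAT2 2.2.1. No source used here gives the annotation release or the strand setting. The summary lines (84.0% to 92.9% of entries) stayed out of library sizes and tests. Paralogs with near-identical copies can lose reads that align to several places.

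Counts were fitted with edgeR 4.0.16 (R 4.3.3; quasi-likelihood test, TMM scaling, minimum count 10 and total 15), with Benjamini-Hochberg adjustment at 0.05. The standard error of a log2 fold change was computed from that change and the F statistic of its test. CPM were computed with TMM scaling, and Poisson intervals (95%) cover counting error only. The fits were tested on simulated data. Alternatives were no filter, a minimum count of 50, DESeq2's size factors, no scaling, DESeq2 1.42.0, limma 3.58.1 on log2(FPKM + 0.1) and log2(FPKM + 1) for genes at 0.1 FPKM or more in 3 libraries, mitochondrial and clone-named genes left out, and each library left out. Gene positions are from GENCODE 29, and promoter windows from RefSeq (GRCh38.p14).

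The 9 genes and the lists were chosen with earlier results of these data known. The genes named were taken from the 9, SUPV3L1 and PNPT1, the lists of 9 or fewer, the 4 of highest mean FPKM in longer lists with any gene called, the nearest annotated neighbours, and the 10 genes of most similar profile. Not every gene of the marker lists and not every neighbour is named. Others are said to be named after their values were seen, and 1 gene of these lists is not reported here.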

Additional observations from a re-analysis of the deposited data

How the results depend on the processing

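The genes were chosen on this contrast, so a median log2 fold change that stays above 0 under every alternative is no test of it. The median was 2.48 over the 8 genes fitted. It ranged from 2.16 to 2.78 over 8 or 9 genes when 1 library was left out. On log2(FPKM + 1), which compresses low genes by construction, it was 1.33 over 9 genes. The number of fitted genes whose groups did not overlap was 5 to 7, over changing numbers fitted. It was 6 of 8 in the main fit, 5 of 7 with a minimum count of 50 and 7 of 9 without the filter. The share over all genes tested with SUPV3L1 knockdown higher was 4.62% in the main fit and was not counted for the alternatives. Genes called over all genes tested numbered 0 with edgeR, 187 without the filter on low counts, 19 with DESeq2, and 0 to 1 when 1 library was left out, the 1 being SERPINA1 without SUPV3L1 knockdown replicate 2, named after its values were seen. In the pathway lists, 9 genes were called without the filter and 0 otherwise. The share of all genes called without the filter was not computed, and the cause was not tested. On log2(FPKM + 1), PTAFR was at 1.86, TREM1 at 1.33, CSF1R at 1.06 and MS4A6A at 0.84, and CD14 was at 2.96 with a pseudocount of 0.1 and 1.81 with 1. LYN lay below 0 under 3 alternatives, at -0.11 at the lowest. No paired analysis was possible because the labels give no shared replicate numbers. With 3 libraries a group, and PNPT1 knockdown replicate 3 at 5852090 assigned counts, genes of a few counts such as CD14, CSF1R and PTAFR cannot be measured closely in PNPT1 knockdown.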
